A study of Mus musculus with 9 samples.

Results

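Collagen crosslinking and hydroxylation enzymes were followed in stromal cells from mice with a conditional deletion of Grem1, the gene of a secreted antagonist of bone morphogenetic proteins. The set was chosen by gene symbol, with earlier results of these data known, as were the gene lists further below. Their counts of calls, set beside the shares over all genes, are therefore descriptions and not independent support. The set holds 10 of the 27179 genes of the deposited matrix: the lysyl oxidase genes Lox, Loxl1, Loxl2, Loxl3 and Loxl4, the lysyl hydroxylase genes Plod1, Plod2 and Plod3, and the prolyl 4-hydroxylase alpha subunit genes P4ha1 and P4ha2. All 10 were measured in every library and all 10 passed the filter on low values. The libraries were made from poly(A) RNA of lineage-negative cells, sorted by their tdTomato signal out of the fibrous tissue around a tibial implant 2 weeks after surgery. In the 5 conditional knockout (cKO) libraries the genotype was Lepr-CreERT;Tdtomato;Grem1fl/fl, and in the 4 control libraries it was Lepr-CreERT;Tdtomato, so that both groups carried the tamoxifen-inducible Cre driven by Lepr and the red reporter, both received tamoxifen and implants, and the controls had no floxed Grem1 allele. Deletion is limited to cells in which Lepr drives Cre. The labels give no ages and do not say that each library came from its own animal. Whether the p-values rest on spread between animals is therefore not known. Libraries of the same genotype did differ widely. In controls Lepr ran from 935 to 40594 normalized counts and the summed endothelial markers from 3120 to 98460. The part of animals, dissection or sorting in this spread was not tested.

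Newly made procollagen chains are modified in the endoplasmic reticulum before they fold. Prolyl 4-hydroxylase, a tetramer of alpha subunits and protein disulphide isomerase, makes the hydroxyproline that holds the collagen triple helix together, and the lysyl hydroxylases make hydroxylysine, which carries sugars and shapes the later crosslinks. Outside the cell the lysyl oxidases, copper-dependent amine oxidases, turn lysine and hydroxylysine side chains into aldehydes that join neighbouring molecules in collagen and elastic fibres. In fibrous and skeletal tissue these enzymes set how stiff and how soluble the matrix becomes.

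The depth recovered from the files was 76.3 to 87.2 M reads in cKO replicates 1 to 4, 43.5 M in cKO replicate 5 and 44.8 to 53.4 M in the controls. Depth class and genotype cannot be told apart in replicates 1 to 4. Replicate 5 also stood apart in most of the enzyme values below, so the enzymes' fold changes and the counts of calls are given with and without it. It was thus singled out from the same values that are then tested. Leaving it out narrows the knockout spread where it stood apart: the SE of Plod3 went from 0.34 to 0.16. The limma adjusted p-values without replicate 5 are therefore optimistic. Values are normalized counts: gene counts divided by the authors' size factor of each library. Grem1 had 83.2, 46.4, 125, 133 and 60.8 normalized counts in cKO replicates 1 to 5, against 736, 517, 676 and 356 in control replicates 1 to 4 (log2 fold change -2.72 with SE 0.43, limma adjusted p = 0.00781; exact two-sided permutation p = 0.00794, the smallest these group sizes allow). The LEPR stroma markers Lepr, Cxcl12, Kitl, Pdgfra, Pdgfrb and Ebf3 were detected in all libraries, and their summed level was 129024 to 170324 normalized counts in cKO replicates 1 to 4 and 75918 in replicate 5, against 86856 to 329608 in controls. Lepr alone had 9822 to 15785 in cKO replicates 1 to 4 and 1347 in replicate 5, against 935 to 40594 in controls, and was not called (limma adjusted p = 0.976). Replicate 5 was thus the lowest knockout in both, and the part of this in its enzyme values was not tested. Across the 15832 genes tested, 7.48% were called at a Benjamini-Hochberg adjusted p under 0.05 in limma, 2.87% lower and 4.61% higher in cKO libraries.

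With all libraries, the lysyl hydroxylase genes other than Plod3, together with Loxl3, made up the called changes. Plod1, Plod2 and Loxl3 fell in the knockout, by 2.02-fold, 2.98-fold and 3.47-fold, which is 3 of the 10 enzyme genes called lower and 0 called higher, against the 2.87% called lower over all genes. At an unadjusted p under 0.05, limma had 7 of the 10 lower and 0 higher, where 12.2% of all genes were lower and 14.7% higher (26.9% in all). The other 7 were not called. Their log2 fold changes ran from -1.28 for P4ha2 to 0.24 for Loxl1, and the median over the 10 genes was -1.02, beside -0.0039 over all genes tested. Fitted without cKO replicate 5, Loxl2, Plod3, P4ha1 and P4ha2 passed as well, so that 7 of 10 were called lower, where 10.1% of all genes were (12.4% were higher, 22.5% in all). Every one of these 7 genes was lower in each of cKO replicates 1 to 4 than in any control, a pattern shared by 12.3% of all genes tested. Replicate 5 lay within the control range for 6 of the 7 and below it for Plod1; over all genes it lay within that range for 53.1%. Of count tests on the recovered reads, edgeR called 1 enzyme gene lower, Plod1, and 0 higher, where it called 4.96% of all genes (1.71% lower, 3.26% higher). DESeq2 called 5 lower (Plod1, Plod2, Plod3, Loxl3 and P4ha2) and 0 higher, where it called 16.0% of all genes (6.14% lower, 9.9% higher). In bulk RNA, fewer cells that express a gene and less of its RNA per cell cannot be told apart.

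**Figure D1:**
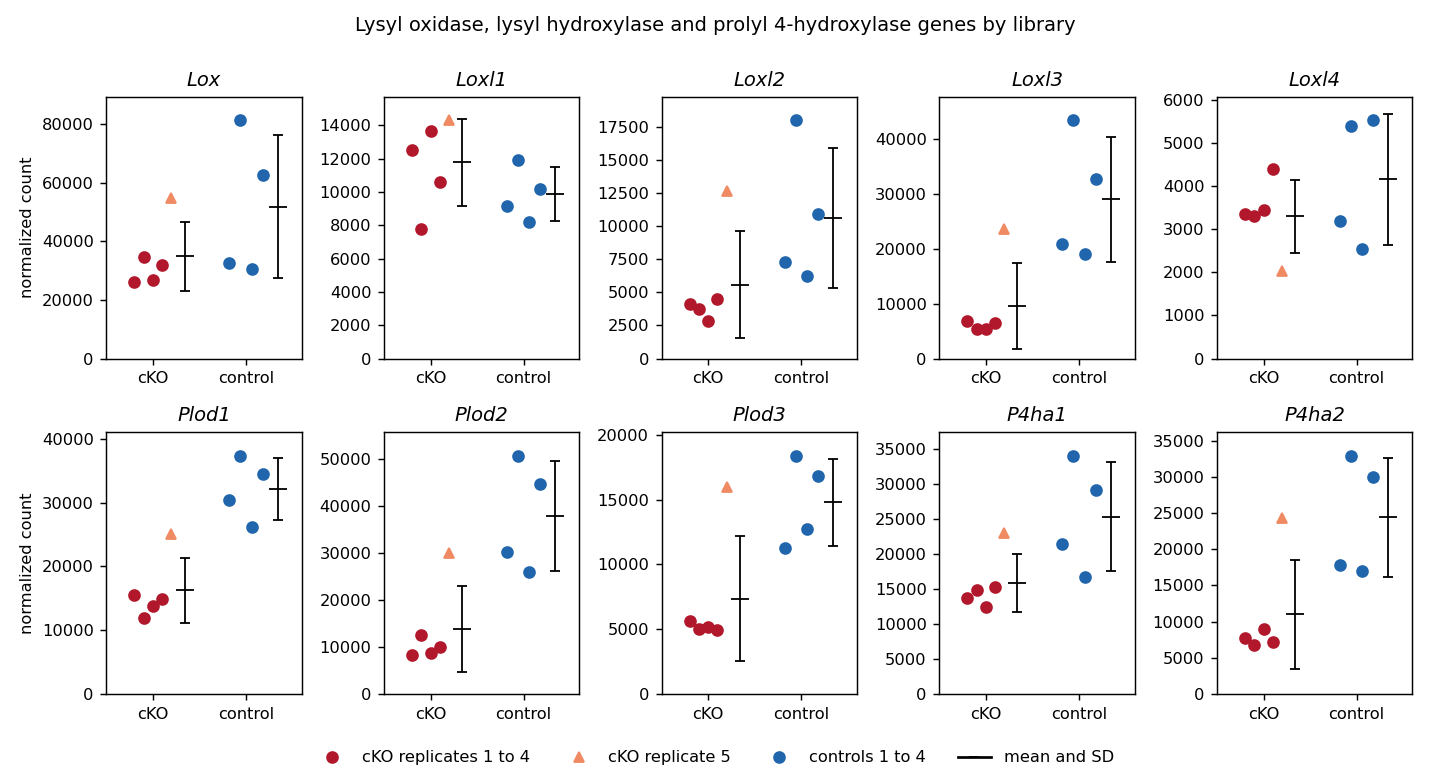
Normalized counts (vertical axes, starting at 0) of the 10 enzyme genes in each library, with the mean and SD of each group beside its points. For Plod1, Plod2, Plod3, Loxl2, Loxl3, P4ha1 and P4ha2 the cKO replicates 1 to 4 lie below all 4 controls, while cKO replicate 5 (triangle) lies with the controls or, for Plod1, between the other knockouts and the controls.

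The sequences just upstream of 4 of the genes that were lower in cKO replicates 1 to 4 are shown because P4ha1 and P4ha2 are known targets of hypoxia-inducible factor, whose core motif can be looked for by letter. RefSeq promoter entries (build GRCm38.p6) matched 5 of the 10 genes: Loxl4, P4ha1, P4ha2, Plod1 and Plod3. Each line gives the 250 bases before the annotated start on the gene's own strand, and capitals mark ACGTG or GCGTG on either strand (CACGT or CACGC where the motif lies on the other strand).
Plod1 (chr4:147936777-147937026, - strand): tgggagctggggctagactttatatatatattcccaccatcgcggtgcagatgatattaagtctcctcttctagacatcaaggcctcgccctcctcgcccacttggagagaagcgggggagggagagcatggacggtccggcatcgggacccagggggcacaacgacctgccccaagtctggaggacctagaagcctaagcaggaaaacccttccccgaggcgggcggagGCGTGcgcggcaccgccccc
Plod3 (chr5:136986769-136987018, + strand): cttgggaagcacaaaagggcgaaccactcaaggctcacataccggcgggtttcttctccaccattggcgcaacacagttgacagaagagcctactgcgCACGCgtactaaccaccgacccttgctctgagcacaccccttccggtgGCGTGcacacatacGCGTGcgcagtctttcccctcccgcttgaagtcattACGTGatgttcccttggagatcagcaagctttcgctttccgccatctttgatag
P4ha1 (chr10:59323046-59323295, + strand): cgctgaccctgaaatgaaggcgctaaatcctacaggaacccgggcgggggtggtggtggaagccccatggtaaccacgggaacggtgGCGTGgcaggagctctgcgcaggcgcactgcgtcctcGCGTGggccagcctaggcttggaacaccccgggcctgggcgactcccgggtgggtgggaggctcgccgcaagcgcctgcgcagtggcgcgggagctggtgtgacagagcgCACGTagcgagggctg
P4ha2 (chr11:54100674-54100923, + strand): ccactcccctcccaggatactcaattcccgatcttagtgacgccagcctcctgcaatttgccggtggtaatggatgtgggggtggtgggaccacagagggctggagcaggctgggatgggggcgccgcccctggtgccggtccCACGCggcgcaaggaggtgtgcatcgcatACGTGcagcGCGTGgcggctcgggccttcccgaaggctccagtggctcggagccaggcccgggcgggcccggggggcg

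ACGTG occurred 1 time each upstream of Plod3, P4ha1 and P4ha2 and 0 times upstream of Plod1 and Loxl4. GCGTG occurred 3 times for Plod3, 2 times for P4ha1, 2 times for P4ha2 and 1 time each for Plod1 and Loxl4. All 5 windows therefore held at least 1 of these motifs, as did 38.6% of the 32851 promoter windows of the same length. The 5 windows were 55.6% to 76% G and C, where the median of all windows was 52.4%. No 2 matches overlapped within a window, and Loxl4, whose RNA was not called, held one as well. A match is a description of the letters and not a shown binding site. GGGCGG, the GC box, was also searched on both strands and occurred 2 times for Plod1, 0 for Plod3, 1 for P4ha1, 2 for P4ha2 and 3 for Loxl4, and in 32.7% of all windows.

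Plod1, the lysyl hydroxylase that acts on the helical part of collagen and is mutated in the kyphoscoliotic form of Ehlers-Danlos syndrome in humans, was the enzyme gene whose groups did not overlap. Its normalized counts were 15575, 11946, 13850, 14923 and 24991 in cKO replicates 1 to 5, against 30424, 37321, 26150 and 34405 in control replicates 1 to 4. Every knockout value was below every control value, and Plod1 was the only member of the set for which all 9 libraries divided by genotype; 4.6% of all genes tested were lower in this way. The means were 16257 ± 5072 (SD, n = 5) in cKO libraries and 32075 ± 4858 (SD, n = 4) in controls, with a log2 fold change of -1.02 (SE 0.21, limma adjusted p = 0.0211). Without cKO replicate 5 it was -1.18 (limma adjusted p = 0.000797). Leaving out any other library left Plod1 called in 2 of 8 fits, without control 3 and without cKO replicate 2, with limma adjusted p between 0.0338 and 0.0625 over the 8.

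Plod2 encodes the lysyl hydroxylase that modifies the ends of collagen chains, the step behind the stable crosslinks found in bone, cartilage and scar. It had 8216, 12542, 8752, 10085 and 30016 normalized counts in cKO replicates 1 to 5, against 30138, 50699, 25913 and 44624 in control replicates 1 to 4. The highest of cKO replicates 1 to 4 was below every control, and replicate 5 lay between control 3 and control 1. Group means were 13922 ± 9150 (SD, n = 5) in cKO libraries and 37843 ± 11733 (SD, n = 4) in controls, and the log2 fold change was -1.58 (SE 0.37, limma adjusted p = 0.0351). Without cKO replicate 5 the log2 fold change was -1.90 (limma adjusted p = 0.000956), and in the 8 fits that left out another library Plod2 lost its call, with limma adjusted p from 0.0514 to 0.093.

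Plod3 encodes a lysyl hydroxylase that also adds glucose to hydroxylysine already carrying galactose. It had 5608, 5010, 5201, 4951 and 15931 normalized counts in cKO replicates 1 to 5, against 11242, 18369, 12738 and 16786 in control replicates 1 to 4. The first 4 knockout values lay within a coefficient of variation of 5.72%, the smallest of the 10 genes in those libraries, while replicate 5 exceeded controls 1 and 3. With all libraries Plod3 was not called (log2 fold change -1.16, SE 0.34, limma adjusted p = 0.0643). Without replicate 5 its log2 fold change was -1.48 (limma adjusted p = 0.000559), the lowest adjusted p of the set in that fit. Of the annotated Plod3 exon bases 11.7% are shared with Znhit1 on the opposite strand, and 11.6% of Loxl3 with Htra2. The strand setting of the counting is not given in the sources used here, so reads there cannot be assigned with certainty. Znhit1 averaged 1408 normalized counts in cKO libraries and 1531 in controls, and Htra2 1628 in cKO libraries and 1523 in controls, well under the levels of the enzyme genes.

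The prolyl 4-hydroxylase subunit genes were called when replicate 5 was left out. P4ha2 had 7684, 6747, 9036, 7185 and 24341 normalized counts in cKO replicates 1 to 5, against 17744, 32890, 16945 and 30004 in control replicates 1 to 4. P4ha1, the alpha subunit of the enzyme's most widespread form, had 13671, 14920, 12470, 15305 and 22978 in cKO replicates 1 to 5, against 21397, 34023, 16710 and 29178 in control replicates 1 to 4. In both genes replicates 1 to 4 were below all controls and replicate 5 lay above controls 1 and 3. With all libraries neither was called: the log2 fold change was -1.28 for P4ha2 (SE 0.38, limma adjusted p = 0.0665) and -0.66 for P4ha1 (SE 0.24, limma adjusted p = 0.11). Without replicate 5 both were, at -1.62 for P4ha2 (limma adjusted p = 0.00182) and -0.80 for P4ha1 (limma adjusted p = 0.0272).

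Within a library, the ratio of P4ha1 to P4ha2 counts does not depend on the library's size factor. It was 1.78, 2.21, 1.38 and 2.13 in cKO replicates 1 to 4 and 0.944 in replicate 5, against 1.21, 1.03, 0.986 and 0.972 in control replicates 1 to 4. The first 4 knockouts thus lay above every control in this ratio, and replicate 5 below every control. The ratio of Plod2 to Plod1 ranged from 0.528 to 1.20 in cKO libraries and from 0.991 to 1.36 in controls, and the groups overlapped.

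Of the 5 lysyl oxidase genes 1, Loxl3, was called with all libraries and 2, Loxl2 and Loxl3, without replicate 5. Loxl3, one of the family members with scavenger receptor domains and a gene needed for palate and spine formation in mice, had the largest fold change of the 10 genes. Its normalized counts were 6852, 5462, 5326, 6491 and 23549 in cKO replicates 1 to 5, against 20795, 43344, 19096 and 32688 in control replicates 1 to 4. Replicates 1 to 4 were all below the lowest control and replicate 5 lay between control 1 and control 4. The means were 9536 ± 7861 (SD, n = 5) in cKO libraries and 28981 ± 11325 (SD, n = 4) in controls, with a log2 fold change of -1.80 (SE 0.44, limma adjusted p = 0.0388). Without replicate 5 it was -2.19 (limma adjusted p = 0.000754), and without any one of the other libraries the limma adjusted p was between 0.0583 and 0.1, so the call was lost each time.

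Loxl2, which crosslinks collagen IV and is often raised in fibrosis, had 4144, 3739, 2813, 4517 and 12682 normalized counts in cKO replicates 1 to 5, against 7293, 17977, 6234 and 10895 in control replicates 1 to 4. Replicates 1 to 4 were again below all controls, while replicate 5 exceeded 3 of the 4. With every library included its log2 fold change of -1.02 (SE 0.44) was not called, at a limma adjusted p of 0.164. Without replicate 5 it was -1.37 and called (limma adjusted p = 0.0154).

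Lox itself, the founding member and the most abundant of the 10 genes per kilobase, was not called in either fit. It had 26264, 34676, 26796, 32059 and 54998 normalized counts in cKO replicates 1 to 5, against 32765, 81382, 30713 and 62575 in control replicates 1 to 4. The groups overlapped: controls 1 and 3 stood within the range of cKO replicates 1 to 4, and controls 2 and 4 above every knockout. The log2 fold change was -0.50, with a 95% interval of -1.23 to 0.23 (limma adjusted p = 0.355). Without replicate 5 it was -0.68, with an interval of -1.38 to 0.022 (limma adjusted p = 0.15).

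Loxl1, the lysyl oxidase needed for elastic fibre renewal in mice, had a positive fold change, unlike the others, and was not called. Its normalized counts were 12491, 7802, 13652, 10603 and 14288 in cKO replicates 1 to 5, against 9136, 11939, 8166 and 10201 in control replicates 1 to 4. Here 3 of the 5 knockouts were above every control, and cKO replicate 2 was below them all. The log2 fold change was 0.24, with a 95% interval of -0.19 to 0.66 (limma adjusted p = 0.453), an interval that excludes a fall of the size seen for Loxl3, Plod2 or Plod1. Without replicate 5 it was 0.16 (limma adjusted p = 0.581). Loxl4, the least abundant of the family, had 3356, 3294, 3430, 4394 and 2021 normalized counts in cKO replicates 1 to 5, against 3178, 5390, 2547 and 5515 in control replicates 1 to 4. It was the only one of the 10 with its lowest knockout value in replicate 5, and its log2 fold change was -0.30 (95% interval -0.92 to 0.32, limma adjusted p = 0.525). Without replicate 5 it was -0.13 (limma adjusted p = 0.741).

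Ratios within the family are free of the size factor too. Loxl2 over Loxl1 was 0.332, 0.479, 0.206 and 0.426 in cKO replicates 1 to 4 and 0.888 in replicate 5, against 0.798, 1.51, 0.763 and 1.07 in control replicates 1 to 4. The first 4 knockouts were below all controls and replicate 5 was among them. Lox over Loxl1 ranged from 1.96 to 4.44 in cKO libraries and from 3.59 to 6.82 in controls, with overlap.

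**Figure D2:**
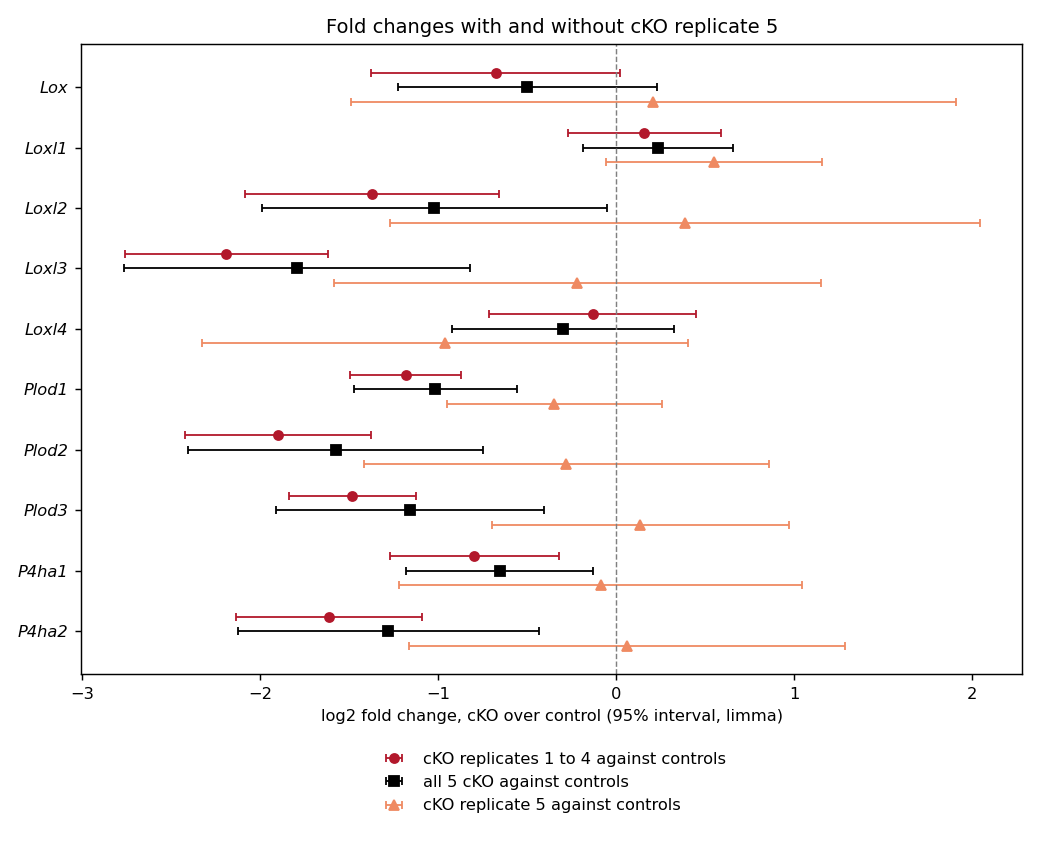
Log2 fold changes, cKO over control, with 95% intervals from limma (horizontal axis) for each enzyme gene, with cKO replicates 1 to 4 alone (circles), all 5 cKO libraries (squares) and replicate 5 alone (triangles). The intervals without replicate 5 lie below 0 for 7 genes, and all 10 intervals of replicate 5 alone include 0.

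Set against the 4 controls, the comparison in which all libraries had under 60 M reads, cKO replicate 5 gave 0 of 10 calls in limma, where 0.524% of all genes were called (0.114% lower, 0.411% higher). At an unadjusted p under 0.05 it also gave 0, where 9.49% of all genes passed. There the log2 fold changes ran from -0.96 for Loxl4 to 0.55 for Loxl1, with a median of -0.013. For Loxl3 it was -0.22, with a 95% interval of -1.59 to 1.15 that did not reach the -2.19 of replicates 1 to 4. For Plod2 it was -0.28 (interval -1.42 to 0.86, against -1.90 in replicates 1 to 4), for Plod3 0.14 (-0.70 to 0.97, against -1.48) and for P4ha2 0.061 (-1.17 to 1.29, against -1.62). For Plod1 it was -0.35 (-0.95 to 0.26, against -1.18) and for Loxl2 0.38 (-1.27 to 2.04, against -1.37). The interval of P4ha1 did include the value of replicates 1 to 4, at -0.087 (-1.22 to 1.05, against -0.80). The wide intervals of a single knockout library do not show that it equals the controls, and the difference between replicate 5 and the other knockouts was not tested. In these fits the lone knockout is assumed to vary like the controls. Grem1 itself was low in replicate 5, at 60.8 normalized counts. Among the 1952 genes for which cKO replicates 1 to 4 were all below the controls, replicate 5 was at or above the lowest control for 62.7%.

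The controls were not alike either. Controls 2 and 4 were both above controls 1 and 3 for all 10 genes, control 2 was the highest control for 9 of them and control 3 the lowest for 9. Across controls the coefficient of variation was highest for Loxl2, at 50.1%, and Lox, at 47.2%, and lowest for Plod1, at 15.1%. The endothelial marker sum was 80939 normalized counts in control 1, 3120 in control 2, 98460 in control 3 and 5420 in control 4, high where the enzymes were low. The LEPR stroma sum ran the same way, at 183580 in control 1, 113888 in control 2, 329608 in control 3 and 86856 in control 4. The cartilage marker sum was high where the enzymes were high, at 3061636 in control 1, 3966863 in control 2, 1771704 in control 3 and 4099161 in control 4. The part of these in the enzyme values was not tested.

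Divided by exon length, levels can be set side by side between genes. In cKO libraries the order by mean normalized count per kilobase was Lox (7317), P4ha1 (3857), Loxl1 (3569), Plod2 (2582), Plod1 (2403), Loxl3 (2072), P4ha2 (1763), Plod3 (1624), Loxl2 (1032) and Loxl4 (783). In controls it was Lox (10854), Plod2 (7018), Loxl3 (6296), P4ha1 (6156), Plod1 (4741), P4ha2 (3910), Plod3 (3271), Loxl1 (2991), Loxl2 (1961) and Loxl4 (987). The ranges over libraries of neighbouring genes overlapped throughout both orders. In cKO replicates 1 to 4 alone the order was Lox (6268), P4ha1 (3425), Loxl1 (3378), Plod1 (2080), Plod2 (1836), Loxl3 (1311), P4ha2 (1228), Plod3 (1149), Loxl4 (859) and Loxl2 (704), so that Plod1 stood above Plod2 and Loxl4 above Loxl2. There Lox lay above P4ha1, Loxl1 above Plod1, Plod2 above Loxl3 and Plod3 above Loxl4 without overlap, and the other neighbours overlapped. Loxl1 stood the third in cKO libraries, with or without replicate 5, and the eighth in controls. The lengths are unions of annotated exons, not those of the transcripts in use, so the order is approximate.

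The main chain of collagen I was not among the called genes. Col1a1 had 1238854, 4522428, 2541647, 2231327 and 2485722 normalized counts in cKO replicates 1 to 5, against 2479501, 2602744, 1953074 and 2455549 in control replicates 1 to 4 (log2 fold change 0.02, limma adjusted p = 0.989). Expressed per 1000 counts of Col1a1, Col1a2 and Col3a1 in the same library, Loxl3 was 2.19, 0.649, 1.03, 1.36 and 3.27 in cKO replicates 1 to 5, against 3.36, 5.66, 3.87 and 4.58 in control replicates 1 to 4. The groups did not overlap, and here replicate 5 was below the controls too. Plod2 was 2.62, 1.49, 1.69, 2.11 and 4.17 in cKO replicates 1 to 5, against 4.88, 6.62, 5.26 and 6.25 in control replicates 1 to 4, also without overlap. The other 8 genes overlapped between groups on this scale. For Plod1 the overlap came from cKO replicate 1, at 4.97 against 4.82 to 5.30 in controls, the library with the lowest collagen I and III sum. These ratios are descriptions, with no test, and the share of all genes without overlap on this scale was not computed. The divisor itself differed between libraries. Col3a1 had 421433 to 828980 normalized counts in cKO replicates 1 to 4 and 3029499 in replicate 5, against 1601115 to 2888262 in controls.

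**Figure D3:**
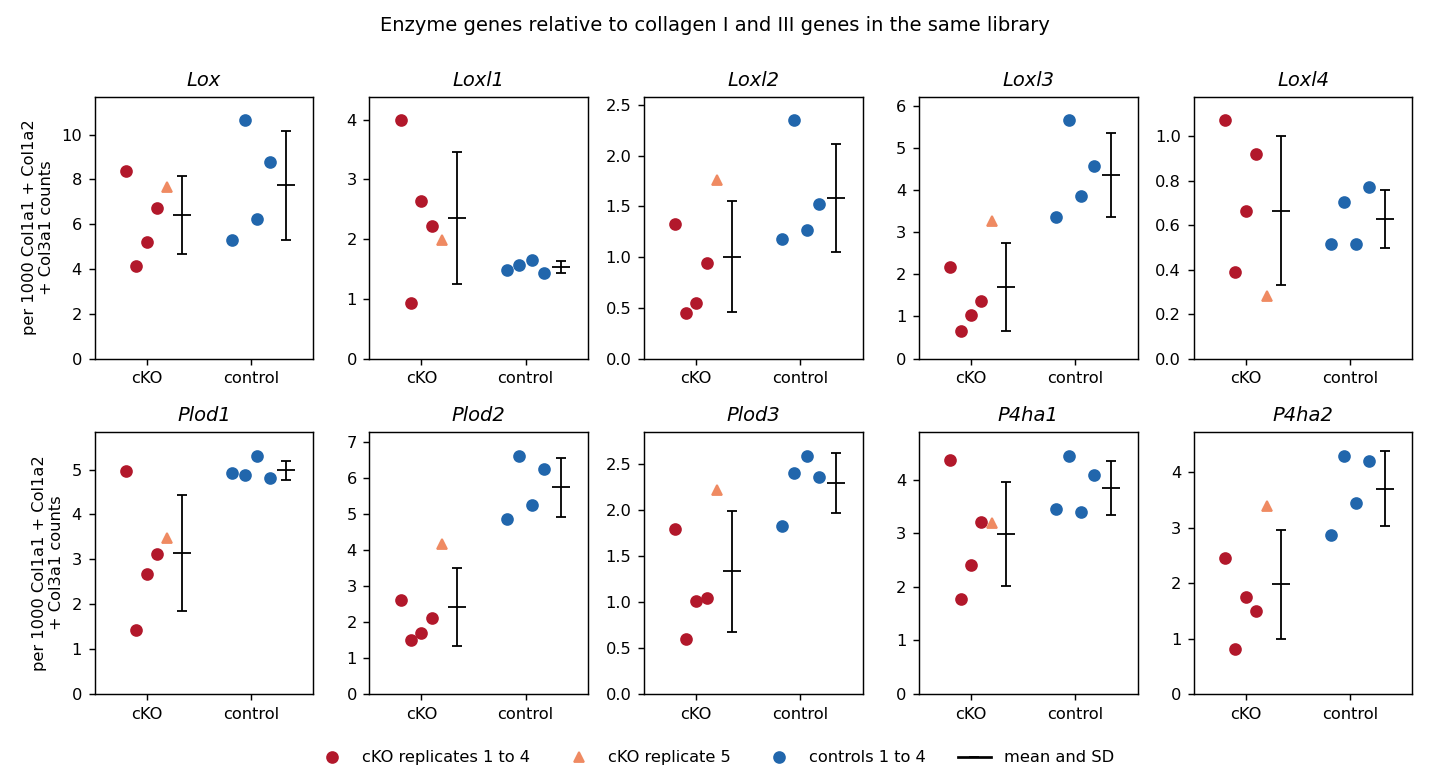
Each enzyme gene's normalized count per 1000 counts of Col1a1, Col1a2 and Col3a1 in the same library (vertical axes, starting at 0), with the mean and SD of each group. Loxl3 and Plod2 are the panels in which all 5 cKO libraries lie below all 4 controls; for Loxl1, 4 of the 5 cKO libraries lie above the controls.

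Among 21 genes of collagen processing other than the 10 enzymes (chaperones, further hydroxylases, galactosyltransferases and propeptide-cleaving enzymes), 5 fell and 0 rose, against 2.87% and 4.61% of all genes, with a median log2 fold change of -0.63. The collagen chaperone Fkbp10 fell 1.88-fold (limma adjusted p = 0.0176), the prolyl 3-hydroxylases P3h1 2.56-fold (0.0184) and P3h2 3.05-fold (0.0196), and P3h4, a partner of Plod1 in a complex of the endoplasmic reticulum, 1.91-fold (0.0278). Colgalt1, which adds galactose to hydroxylysine, fell 1.66-fold (0.0384) and is named because the count is small. For all 5 the knockout values were below every control value, replicate 5 included. The same held for Ppib, which was not called. Of all genes tested 4.6% were lower in this way. P4ha3, the remaining prolyl 4-hydroxylase alpha subunit, singled out after its values were seen, had 980 to 1328 normalized counts in cKO replicates 1 to 4 and 11689 in replicate 5, against 5959 to 11198 in controls, and was called by limma without replicate 5 (log2 fold change -2.85, limma adjusted p = 0.000111; -2.19 and 0.0666 with it). Without replicate 5, 12 of the 21 were lower and 1 higher, where 10.1% and 12.4% of all genes were.

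Of 11 fibrillar collagen chains 4 fell and 0 rose (median -1.25), against the 2.87% of all genes called lower and 4.61% higher. Without replicate 5, 8 of 11 were lower and 0 higher (median -1.61), against 10.1% and 12.4% of all genes. The 4 added were Col3a1 (log2 fold change -1.80, limma adjusted p = 0.0172), Col5a1 (-1.61, 0.00183), Col5a2 (-1.45, 0.003) and Col5a3 (-0.96, 0.0456), chains of fibrous tissue, named because the count is small. With all libraries the called chains were Col2a1 (23.5-fold, limma adjusted p = 0.0184), Col27a1 (8.06-fold, 0.0184), Col11a2 (4.06-fold, 0.0213) and Col11a1 (5.01-fold, 0.0228), which are known chiefly from cartilage. The summed level of 7 cartilage markers (Col2a1, Acan, Sox9, Matn1, Comp, Hapln1 and Col9a1) was 135628 to 393679 normalized counts in cKO replicates 1 to 4 and 1088995 in replicate 5, against 1771704 to 4099161 in controls. Col2a1 stands in both lists. The cartilage sum was below every control in each cKO library, replicate 5 included. In replicate 5 most of the enzyme genes lay within the control range. So did the cartilage markers Sox9 (17153, against 17110 to 24076 in controls) and Matn1 (566, against 114 to 1245). Col2a1, Acan, Comp, Hapln1 and Col9a1 lay below it there. Replicate 5 was the highest knockout for each cartilage marker except Comp. Of the 7 cartilage genes 4 were called lower (7 without replicate 5), and their part in the enzyme results was not tested. Skeletal muscle markers moved the other way, with 7 of 7 higher with or without replicate 5 and a sum of 58933 to 567443 normalized counts in cKO libraries and 236 to 1448 in controls, in which Myh4 and Myh1 were at 0 in 3 of 4. Smooth muscle and pericyte markers summed to 38267 to 85514 normalized counts in cKO libraries and 88146 to 123522 in controls, with 2 of 5 lower (4 without replicate 5). Macrophage markers ran from 4852 to 107973 in cKO libraries and from 26528 to 59929 in controls, with 1 of 7 lower in both fits. Endothelial markers ran from 1173 to 3310 in cKO libraries and from 3120 to 98460 in controls, with 2 of 6 lower (4 without replicate 5). Schwann cell markers ran from 12847 to 38331 in cKO libraries and from 1842 to 6200 in controls, with 4 of 5 higher in both fits. Osteoblast markers ran from 70232 to 315659 in cKO libraries and from 121956 to 190717 in controls, with 0 of 6 called (1 at an unadjusted p under 0.05 in limma, and 1 higher without replicate 5). Of the LEPR stroma markers 1 of 6 was higher and 0 lower, and without replicate 5 1 was higher and 1 lower. No marker was at 0 throughout a group. For these lists too a part in the enzyme results was not tested.

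Hypoxia-responsive genes, a group to which P4ha1, P4ha2, Plod2 and Lox are also known to belong, were called lower for 5 of 13 and higher for 0 (median -0.998). Of all genes 2.87% were called lower and 4.61% higher. Egln1, an oxygen sensor that marks hypoxia-inducible factor for decay, fell 2.37-fold (limma adjusted p = 0.0211), the pyruvate dehydrogenase kinase gene Pdk1 1.83-fold (0.0288), the mitophagy gene Bnip3 2.30-fold (0.0291), and the angiogenic factor gene Vegfa 2.19-fold (0.0481). The fifth, named because the count is small, was the glycolytic enzyme gene Pgk1 (2.16-fold, 0.0489). For Vegfa and Pgk1 the groups overlapped. Without cKO replicate 5, 8 were lower and 2 higher, where 10.1% and 12.4% of all genes were. The 2 were Ndrg1 (log2 fold change 1.74, limma adjusted p = 0.0192) and Egln3 (1.48, 0.0445), named because the count is small. With all libraries Ndrg1 (1.46), Egln3 (1.11), Aldoa (0.68) and Adm (0.55) had positive log2 fold changes and were not called. The rest of the 13 had negative ones.

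In the remaining lists limma called 0 genes with all libraries. At an unadjusted p under 0.05 it had 3 lower and 1 higher of 8, 1 lower of 6 and 2 lower of 7. Of all genes 12.2% were lower and 14.7% higher at that threshold. Among 8 non-collagen lysyl oxidase substrates and scaffold partners the smallest p belonged to the fibronectin gene Fn1 (log2 fold change -1.87, limma adjusted p = 0.0853) and to Postn (periostin, -1.70, 0.117). Of 6 genes of copper and ascorbate supply, cofactors of the lysyl oxidases and the hydroxylases, the copper importer gene Slc31a1 (-0.50, 0.0601) and the ascorbate transporter gene Slc23a2 (-0.36, 0.374) came first. Of 7 TGF-beta-responsive genes, Ltbp2, which encodes a latent TGF-beta binding protein, had a log2 fold change of -1.09 (limma adjusted p = 0.106). List medians were -0.53, -0.15 and -0.043. Without replicate 5, 3 of 8 were lower and 1 higher, 1 of 6 lower and 2 of 7 lower. Of all genes 10.1% were lower and 12.4% higher in that fit.

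**Figure D4:**
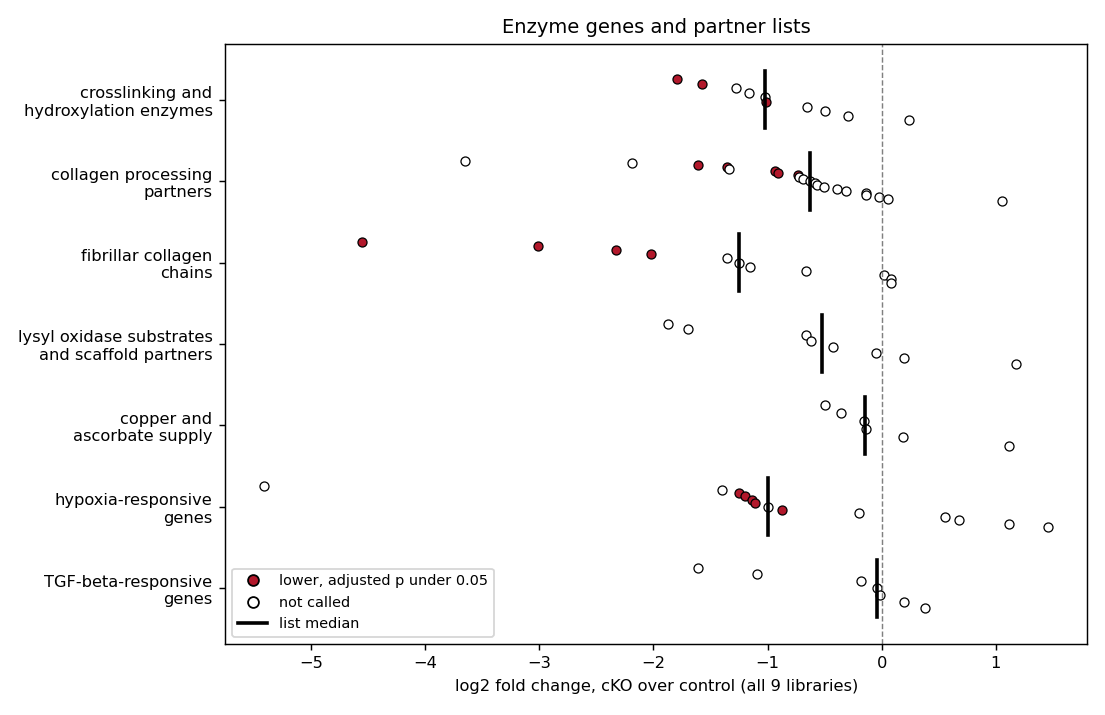
Log2 fold changes, cKO over control with all 9 libraries (horizontal axis), of the 10 enzyme genes and of 6 partner lists; each point is a gene, filled where it was called lower, and the bar is the list median. Calls are found among the enzymes (3), the collagen processing partners (5), the fibrillar collagens (4) and the hypoxia-responsive genes (5).

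Across the 9 libraries the genes whose log2 levels ran most like each enzyme's were described by Pearson's r, which here also carries the shared difference between replicates 1 to 4 and the rest. Loxl3 went most closely with Fam114a1 (r = 0.994) and Eno1 (0.993), Plod1 with Cspg4 (0.993) and Htt (0.991), and Plod2 with Col5a2 (0.993) and Maged2 (0.993). Plod3 went with Enpp1 (0.996) and Ftl1 (0.996), P4ha2 with Rrbp1 (0.991) and Slc39a14 (0.990), and P4ha1 with Arsi (0.981) and Slc2a10 (0.977). For Loxl2 these were Dok1 (0.979) and Tmed10-ps (0.972), for Lox Grb14 (0.986) and Rreb1 (0.968), for Loxl1 Igsf8 (0.971) and Inf2 (0.971), and for Loxl4 Gpt2 (0.908) and Phyh (0.900). Among the enzymes themselves, Loxl3 had r = 0.985 with Plod3, 0.982 with Plod1, 0.979 with P4ha2 and 0.974 with Plod2, whereas Loxl1 had 0.192 or less with each of the other 9.

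The authors' deposited table gave adjusted p of 0.000632 for Plod1, 0.00532 for Plod2, 0.0089 for Loxl3 and 0.0404 for P4ha2. In the authors' deposited table Plod3 (0.0526), P4ha1 (0.0556), Loxl2 (0.173), Lox (0.273), Loxl1 (0.464) and Loxl4 (0.52) were above 0.05, and 17.1% of its genes with an adjusted p were below it.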

How the data were processed

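Per the submitters' processing notes STAR, featureCounts and DESeq2 were used with build mm39, with no versions. The authors deposited normalized counts (a signal; from the values, each library's gene counts over a single size factor). Their second table, per the file headers, holds for cKO against control the mean signal, log2 fold changes with standard errors, a test score and p-values, all as the authors deposited them. Groups and replicate numbers came from the titles. Every value is a whole multiple of 1 step per library (tolerance 0.01 read), except 3 values; dividing recovered whole reads, with at least 99.99% whole, used for depth and for count tests. The enzyme genes had at least 1528 reads in every library. Symbols came from NCBI IDs (25275 of 27179 matched; the others held 0.45% to 0.988% of normalized counts), and exon lengths from GENCODE vM21.

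The test was limma 3.58.1 in R 4.3.3 (trend) on log2(normalized count + 1), which compares geometric means of the values plus 1 and understates changes of low genes, on 15832 genes with at least 10 in at least 4 libraries, two-sided, with Benjamini-Hochberg adjustment over all of them. It was tested on simulated data. The members and lists were chosen with earlier results of these data known, and no test is made over a list. Named genes are the 10 enzymes, Grem1, Lepr, up to 4 called genes per direction and list by p (the 2 of smallest p where none), and the 2 most correlated genes per enzyme; 1 gene that this rule names is not reported here. Recovered reads were also tested with edgeR 4.0.16 and with DESeq2 1.42.0. The closing section gives these and the other alternatives.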

Additional observations from a re-analysis of the deposited data

Results flagged for a closer look

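Within the 5 cKO libraries, replicate 5 was far above the other 4 for 7 of the 10 enzyme genes, the gap to the next library taking up most of the group's range. It had 12682 normalized counts of Loxl2, 23549 of Loxl3, 24991 of Plod1, 30016 of Plod2, 15931 of Plod3, 22978 of P4ha1 and 24341 of P4ha2. The next highest knockout had 4517, 6852, 15575, 12542, 5608, 15305 and 9036 for the same genes. This check flags about 1 in 20 groups by chance; 22 groups (the 10 enzymes and Grem1 in each genotype) were examined and 7 showed such a library. These genes move together across libraries, so the 7 are not separate events. Replicate 5 was also the only cKO library of control-like depth, and its cartilage marker sum was the highest of the knockouts. The part of either in these values was not tested.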

How the results depend on the processing

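Of the 10 enzyme genes, 3 were called lower and 0 higher. The count of lower calls was 1 with edgeR on recovered reads, 5 with DESeq2 on recovered reads, 7 with library quality weights, and 0 with depth class as a covariate, with only libraries under 60 M reads, or without controls 1 and 3 together; leaving out 1 library gave 0 to 7, the 7 without cKO replicate 5. Over all genes 454 were lower and 730 higher: lower calls were 270 with edgeR, 972 with DESeq2, 1819 with quality weights, 61 with the depth class, 18 under 60 M reads and 58 without controls 1 and 3, and higher calls 1567, 2237, 17, 65 and 280 with DESeq2, quality weights, the depth class, under 60 M reads and without controls 1 and 3. Leaving out 1 library gave 120 to 1599 lower and 257 to 1963 higher. With the replicate block 7 enzymes were lower, as were 1207 genes, and 1508 were higher. Numbers shared between groups do not pair the libraries: deviations of like-numbered libraries correlated at -0.011 to 0.07, and the block leaves cKO replicate 5 without weight. The log2 fold change turned positive for Lox (0.21), Loxl2 (0.38), Plod3 (0.14) and P4ha2 (0.061) with the depth class and likewise under 60 M reads, where the knockout is replicate 5 alone; the cause was not tested. Pseudocounts of 0.5 and 5, no filter, a filter of 50, and TMM or upper-quartile scaling kept 3 lower calls.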
